A study of Rattus norvegicus with 40 samples.

Results

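Livers of 10 adult male Sprague Dawley SD:CD rats that received GW7647 at 1 mg/kg per day were compared with livers of 10 rats of the same strain, sex and age class that received vehicle alone. GW7647 is a synthetic agonist of PPAR-alpha, and in both groups oral gavage was daily for 4 days and the liver was collected 24 h after the last gavage. These 20 arrays were part of a dose study of 40, in which 10 more rats received 0.1 mg/kg and 10 more received 10 mg/kg on the same schedule. No group carried a genetic change, each array held the total RNA of 1 liver, and a whole liver section holds all liver cell types. All 13437 genes with a usable probe set were tested, and members of 62 gene lists are described by function.

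PPAR-alpha is a nuclear receptor that pairs with a retinoid X receptor, binds fatty acids and their derivatives, and turns on genes by which hepatocytes take up, activate and oxidise fatty acids in mitochondria, peroxisomes and microsomes. In rats and mice its agonists also enlarge the liver, multiply peroxisomes and bring hepatocytes into the cell cycle, which human liver does far less. The comparison asked which liver transcripts a middle dose of such an agonist had moved after these days of dosing.

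At 1 mg/kg many genes of fatty acid oxidation and of mitosis were higher than in vehicle. Of 45 measured reference targets of PPAR-alpha 40 rose and 0 fell, of 34 measured mitosis genes 30 rose and 0 fell, and of 9 carnitine shuttle genes 7 rose. Falls were spread over other functions. Apoa4, an apolipoprotein of intestine and rodent liver, fell to 0.156 of the vehicle level. Acmsd, an enzyme that draws tryptophan away from NAD synthesis, fell to 0.28 of that level, with treated values near the floor of the array. Of 11 Kupffer cell and macrophage markers 4 fell, a count that ran from 1 to 6 with the choice of treated arrays. Over all 13437 genes 1485 rose, or 11.1%, and 453 fell, or 3.37%, by the rule given below. Whether falls were fewer than rises depended on the scale. As deposited 5139 genes were higher and 453 lower, whereas after quantile normalization alone 1485 were higher and 1621 lower.

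"Rose" and "fell" are used here only for a Benjamini-Hochberg adjusted p under 0.05 in the limma test, in the same direction on 2 scales: the deposited log2 values, and the same values after quantile normalization of all 40 arrays. The second scale was needed because the deposited values ran higher at 1 mg/kg as a whole. The median over all probe sets was 2.60 ± 0.02 at 1 mg/kg and 2.47 ± 0.02 in vehicle (log2, SD, n = 10 each), and the median log2 change over all genes was 0.16 as deposited and -0.01 after quantile normalization. On the deposited scale alone 5592 genes passed the test (41.6%), 5139 higher (38.2%) and 453 lower (3.37%), whereas after quantile normalization 1485 were higher (11.1%) and 1621 lower (12.1%). With arrays shifted to 1 median the split was 2534 higher and 1214 lower, and with arrays shifted by the hybridisation controls it was 1060 higher and 677 lower. All treated arrays lay above all vehicle arrays on both scales for 175 genes (1.3%), and all below for 17 genes (0.127%). A change of at least 1.5-fold on both scales was found for 290 of the genes that rose (2.16%) and 66 of those that fell (0.491%).

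**Figure D1:**
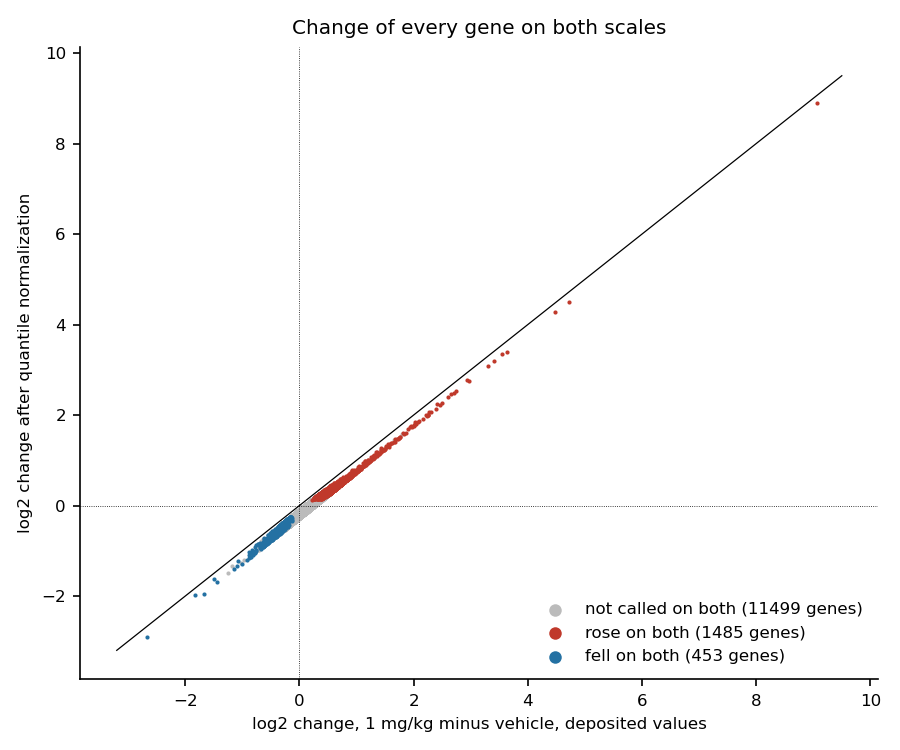
Log2 change of every gene at 1 mg/kg minus vehicle, on the deposited scale (x axis) and after quantile normalization of all 40 arrays (y axis), with 1 point per gene and the line of equal change. The points lie below the line, which shows the shift of the deposited scale; the 1485 red genes rose and the 453 blue genes fell on both scales.

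Some control values differed within and between the groups. Poly-A transcripts added to the RNA before labelling averaged 6.22 ± 0.73 at 1 mg/kg and 5.57 ± 0.37 in vehicle (log2, SD, n = 10 each), and at 1 mg/kg arrays 1 to 4 read lower than arrays 5 to 10. With the poly-A level as a covariate 1107 genes rose and 355 fell. The 3′ minus 5′ signal of actin, a measure of RNA and labelling quality, was 3.11 ± 0.61 at 1 mg/kg and 2.78 ± 0.24 in vehicle (log2). At 1 mg/kg arrays 7 and 10 were highest in it, at 3.95 and 4.42, and the other 8 ran from 2.54 to 3.13. Without these 2 arrays, left out after seeing the data, 1297 genes rose and 353 fell, and 159 of the 182 named genes that had been called kept their call. Vehicle array 1 stood apart in both measures, with poly-A controls at 6.50 and an actin difference of 2.20. Without it 1629 genes rose and 452 fell, and 175 of the 182 kept their call. Leaving out each of the 20 arrays in turn ended the call of 20 named genes for at least 1 array and of none of the other 162. Of 32 further probe sets of called named genes with a mean of log2 5 or more, 26 were called in the same direction as the probe set used. The 6 that were not belong to Cpt1a, Ctsc, Hsp90ab1, Insig2, Srebf1 and Thrsp. Hepatocyte markers had a mean of 12.22 ± 0.06 at 1 mg/kg and 12.24 ± 0.04 in vehicle (log2, SD, n = 10 each; 9 markers).

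The largest single rise was in the acyl-CoA thioesterases, which cleave acyl-CoA into free fatty acid and coenzyme A. Acot1, the cytosolic member, had log2 values of 10.34 on the lowest, 10.76 on the median and 11.08 on the highest of the 10 arrays at 1 mg/kg, against 1.36, 1.65 and 2.10 in vehicle. No treated array came near a vehicle array: the change was 9.06 ± 0.08 (log2, SE; adjusted p = 7.22e-47), a 533-fold ratio whose size rests on vehicle values near the floor of the background correction. Acot2, the mitochondrial relative, was measured well above that floor in both groups, at 10.22, 10.64 and 10.83 at 1 mg/kg and 6.57, 7.14 and 7.46 in vehicle. It rose 11.7-fold with no overlap between the groups (adjusted p = 2.17e-27). Acot8, which works in peroxisomes, rose 2.5-fold, Acot9 2.37-fold and Acot7 2.27-fold, each without overlap. In all, 6 of 8 thioesterases rose, and the list had a median log2 change of 1.21 against 0.16 over all genes (0.97 against -0.01 after quantile normalization). Acot12 rose 1.55-fold, a call that was lost without any 1 of 13 arrays (adjusted p up to 0.102 after quantile normalization).

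**Figure D2:**
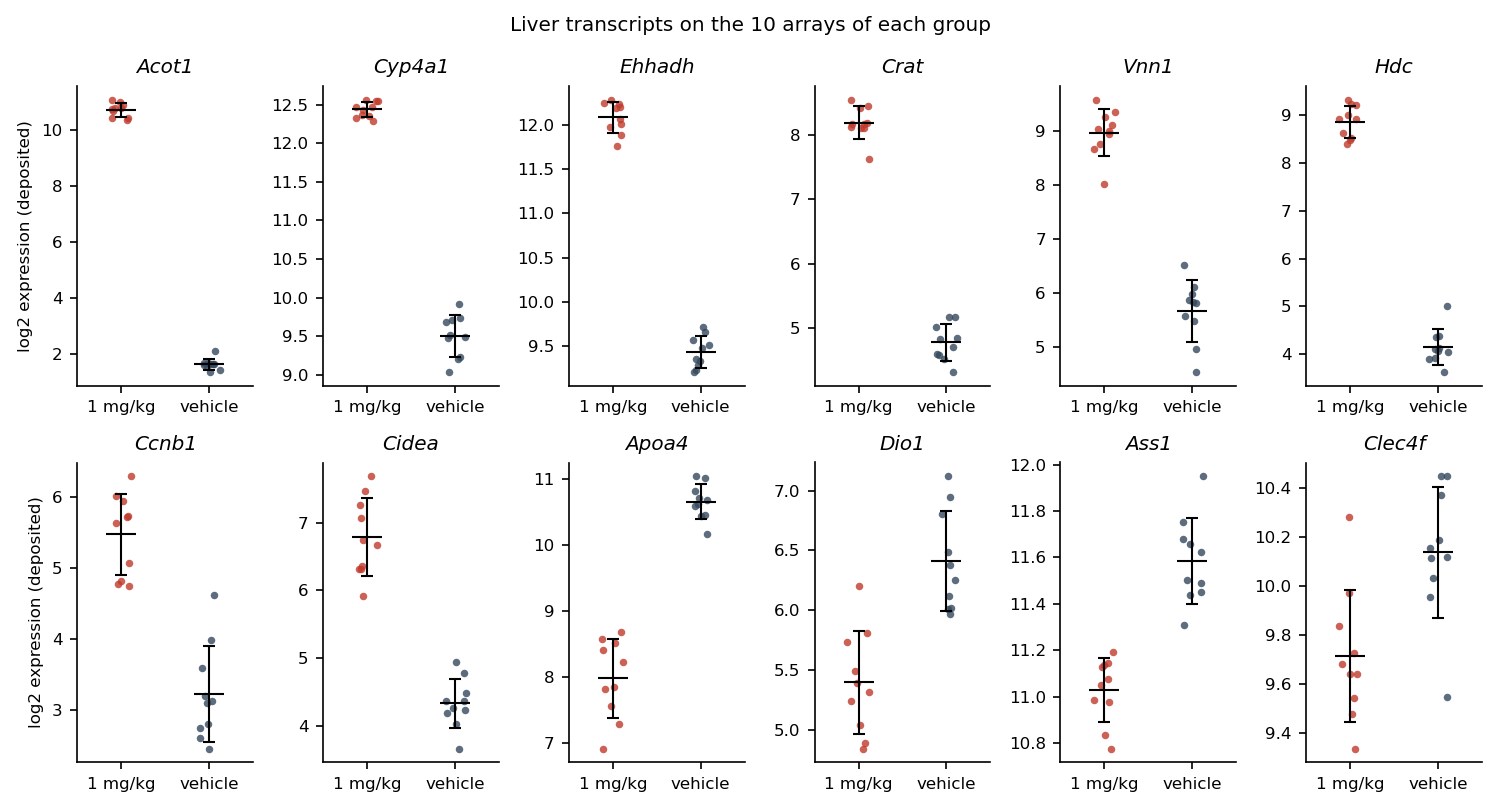
Deposited log2 expression of 12 genes on the 10 arrays at 1 mg/kg (red, left) and the 10 vehicle arrays (dark, right) in each panel, with 1 point per rat and bars for the mean ± SD; each panel has its own log2 axis. The groups do not overlap for Acot1, Cyp4a1, Ehhadh, Crat, Vnn1, Hdc, Ccnb1, Cidea, Apoa4 and Ass1, and do overlap for Dio1 and Clec4f.

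Fatty acids enter hepatocytes through membrane transporters and are carried by binding proteins. Cd36, a fatty acid translocase, had 6.43, 7.28 and 7.98 at 1 mg/kg and 4.83, 5.97 and 6.92 in vehicle (log2; lowest, median and highest of 10, as in all such triplets that follow), and rose 2.62-fold (adjusted p = 1.61e-05). Its groups overlapped, as did those of Fabp3, the heart-type binding protein, which had 4.06, 5.29 and 7.30 at 1 mg/kg and 3.04, 3.73 and 4.13 in vehicle and rose 3.29-fold (adjusted p = 3.72e-06). Fabp3 was the most uneven of these genes among treated rats, with an SD of 1.00 at 1 mg/kg and 0.34 in vehicle (log2). Fabp1, the abundant liver-type binding protein, rose 1.27-fold to 12.88 ± 0.09, against 12.54 ± 0.08 in vehicle (log2, SD, n = 10 each). Fabp7 rose 2.08-fold, the transporter Slc27a1 1.78-fold, Dbi, which binds acyl-CoA, 1.61-fold, and Slc27a2, the main hepatic very-long-chain acyl-CoA synthetase and transporter, 1.59-fold. In total 8 of 14 uptake and binding genes rose and 0 fell.

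The promoter of Fabp1 was the 1 among 38 promoters of PPAR-alpha reference targets that held the loose DR1, so its stretch is shown. A DR1 is the direct repeat that PPAR-alpha and its partner bind: AGGTCA, 1 base, and AGGTCA again, with any base allowed for the T of each copy in the loose form. The loose form was searched on both strands in the 250 bases before the start site of 11088 genes with a promoter in RefSeq (build GRCr8). Of these promoters 35, or 0.316%, held it. Among genes that rose 2 of 1248 promoters held it (0.160%), and among genes that fell 2 of 362 (0.552%). The strict DR1, with both T kept, was in 3 of all promoters and in 0 of the 38. A match is a description and not a binding site, and PPAR-alpha elements can lie outside this window. Capitals mark the match, which lies on the opposite strand.
Fabp1, chr4:104749243-104749295 (plus strand): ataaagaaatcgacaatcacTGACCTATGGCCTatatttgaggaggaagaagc

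Of 12 acyl-CoA synthetases, which activate fatty acids, 4 rose, and 2 did without arrays 7 and 10 of the 1 mg/kg group. Acsl3, the lipid droplet form, had 5.85, 6.57 and 7.08 at 1 mg/kg and 4.74, 5.11 and 5.54 in vehicle and rose 2.56-fold without overlap (adjusted p = 1.19e-08). Acsl4, which prefers arachidonic acid, rose 1.74-fold. Acsl1, the main liver form, rose 1.27-fold to 11.61 ± 0.13, against 11.27 ± 0.11 in vehicle (log2, SD, n = 10 each). That call was lost without any 1 of 8 arrays (adjusted p up to 0.0928 after quantile normalization). Another bright probe set of Acsl1, with a mean of 10.52, also rose (log2 change 0.66, adjusted p = 8.19e-07). A dim one missed the threshold after quantile normalization (adjusted p = 0.221).

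The carnitine shuttle carries acyl groups across the mitochondrial membranes, and its acyltransferases Crat, Cpt1a, Cpt1b, Cpt2 and Crot all rose. Crat, which moves short acyl groups, had 7.63, 8.17 and 8.55 at 1 mg/kg and 4.31, 4.76 and 5.17 in vehicle, a 10.7-fold rise (adjusted p = 7.61e-25). Cpt1b, the muscle form of the gatekeeping enzyme, had 3.79, 4.76 and 5.86 at 1 mg/kg and 2.18, 2.25 and 2.46 in vehicle, a 5.67-fold rise from a dim level (adjusted p = 5.19e-17). Neither gene overlapped between the groups. Cpt1a, the liver form, overlapped: it had 8.84, 9.32 and 9.80 at 1 mg/kg and 7.76, 8.03 and 9.08 in vehicle and rose 2.12-fold (adjusted p = 4.69e-07). Its second probe set, with a mean of 6.37, was 0.78 higher on the deposited scale (log2, adjusted p = 0.00587) and missed the threshold after quantile normalization (adjusted p = 0.113). Crot, the peroxisomal octanoyl transferase, rose 2.86-fold, Slc22a5, the carnitine importer of the plasma membrane, 2.62-fold, and Cpt2, of the inner mitochondrial membrane, 2.31-fold, all without overlap. The 9 shuttle genes had a median log2 change of 1.21.

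Inside mitochondria, 13 of 18 beta-oxidation genes rose. Hadha and Hadhb, the subunits of the trifunctional protein that carries out the last steps for long chains, rose together: Hadha had 9.15, 9.46 and 9.79 at 1 mg/kg and 7.71, 7.92 and 8.26 in vehicle, and Hadhb had 10.79, 11.04 and 11.09 at 1 mg/kg and 9.35, 9.54 and 9.79 in vehicle. The rises were 2.87-fold and 2.73-fold, with no overlap for either. Acaa2, a thiolase, rose 1.95-fold and Acsm3, a medium-chain acyl-CoA synthetase, 2.15-fold. The exception was Acadsb, the dehydrogenase for short branched chains, which fell to 2.87 ± 0.29, against 3.75 ± 0.37 in vehicle (log2, SD, n = 10 each; adjusted p = 5.11e-05), a level near the floor. The auxiliary enzymes that prepare unsaturated fatty acids had a median log2 change of 1.15, beside 0.63 for the beta-oxidation list, a difference that was not tested. Ech1, an isomerase of dienoyl-CoA, had 11.52, 11.69 and 11.89 at 1 mg/kg and 8.47, 9.12 and 9.42 in vehicle, a 6.05-fold rise (adjusted p = 3.33e-26). Eci1 rose 5.34-fold, Decr1 2.22-fold and Eci2 1.8-fold, so that 4 of 5 genes of the list rose, all 4 with no overlap between the groups.

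Peroxisomes shorten very long chains, and 8 of 16 genes of their beta-oxidation rose. Ehhadh, the bifunctional enzyme of this route, had 11.77, 12.13 and 12.29 at 1 mg/kg and 9.20, 9.41 and 9.72 in vehicle, a 6.33-fold rise without overlap (adjusted p = 5.14e-27). Abcd3, which imports acyl-CoA into the organelle, rose 2.59-fold, Nudt7, which degrades peroxisomal coenzyme A, 2.45-fold, Hacl1, of alpha-oxidation, 2.05-fold, and Hsd17b4, a second bifunctional enzyme, 1.58-fold. The peroxins, which build the organelle, rose in 5 of 13 cases. Pex11a, which elongates and divides peroxisomes, led them with 8.46, 8.94 and 9.44 at 1 mg/kg and 5.89, 6.26 and 6.46 in vehicle, a 6.56-fold rise without overlap (adjusted p = 4.05e-20). Pex19, a chaperone of peroxisomal membrane proteins, rose 2.66-fold and Pex6, an export ATPase, 1.79-fold. The list median was 0.16 on the deposited scale, equal to that of all genes, so the rise was that of single peroxins. Cat, the peroxisomal catalase, was higher on the deposited scale (11.64 ± 0.19 at 1 mg/kg and 11.24 ± 0.24 in vehicle, log2, SD, n = 10 each; adjusted p = 0.000334) and missed the threshold after quantile normalization (adjusted p = 0.0556).

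Among the microsomal fatty acid hydroxylases 4 of 12 rose and 2 fell. Cyp4a1, the omega-hydroxylase for which the rodent response is best known, had 12.29, 12.45 and 12.56 at 1 mg/kg and 9.03, 9.51 and 9.91 in vehicle, a 7.65-fold rise (adjusted p = 3e-25). All 10 treated livers lay within a narrow band far above the vehicle livers. Cyp4a3 rose 2.55-fold, Cyp2j4 2.58-fold and Cyp2j3 1.45-fold, the last a smaller change at a high level. Cyp4a8 and Cyp4b1 fell, to 0.602 and 0.759 of the vehicle level, both dim genes whose groups overlapped; for Cyp4a8 vehicle array 2 was high, at 4.98.

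Ketone bodies and the citric acid cycle are the fates of acetyl-CoA. Acat1, which condenses acetyl-CoA, had 10.25, 10.57 and 10.89 at 1 mg/kg and 9.17, 9.40 and 9.74 in vehicle and rose 2.23-fold without overlap (adjusted p = 4.27e-13). Slc16a6, a transporter that exports ketone bodies in fish liver, rose 2.04-fold and Bdh1, which makes hydroxybutyrate, 1.44-fold, which made 3 of 7. Of the citric acid cycle 8 of 15 genes rose, at most 1.65-fold for Suclg1, and of the respiratory chain and ATP synthase 16 of 41, at most 1.44-fold for Ndufa9. Their median log2 changes were 0.38 and 0.32 as deposited and 0.18 and 0.13 after quantile normalization, above those of all genes on each scale. Mitochondrial ribosomal proteins rose in 8 of 40 cases, led by Mrpl30 at 1.65-fold. Pdk4 and Pdk2, kinases that shut pyruvate dehydrogenase, rose 2.5-fold and 1.58-fold, and so did Mpc2, a subunit of the pyruvate carrier, 1.65-fold, while the dim Pdk3 fell to 0.707. Of the uncoupling proteins Ucp2 rose 2.02-fold from a level of 3.35 ± 0.09 in vehicle, and Ucp3 did not pass (2.45 ± 0.22 at 1 mg/kg and 2.48 ± 0.15 in vehicle; log2, SD, n = 10 each; adjusted p = 0.9).

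Coenzyme A is consumed by every activated fatty acid, and 6 of 14 genes of its metabolism rose. Vnn1, a pantetheinase that recycles its vitamin part, had 8.02, 9.01 and 9.58 at 1 mg/kg and 4.53, 5.82 and 6.51 in vehicle, a 9.9-fold rise without overlap (adjusted p = 4.63e-17). Pank1, the first enzyme of the synthesis, rose 2.06-fold, Ppcs, the next, 2.04-fold, and Slc25a42, which takes coenzyme A into mitochondria, 1.92-fold. Members that make, move and degrade coenzyme A thus all occurred among the genes that rose.

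**Figure D3:**
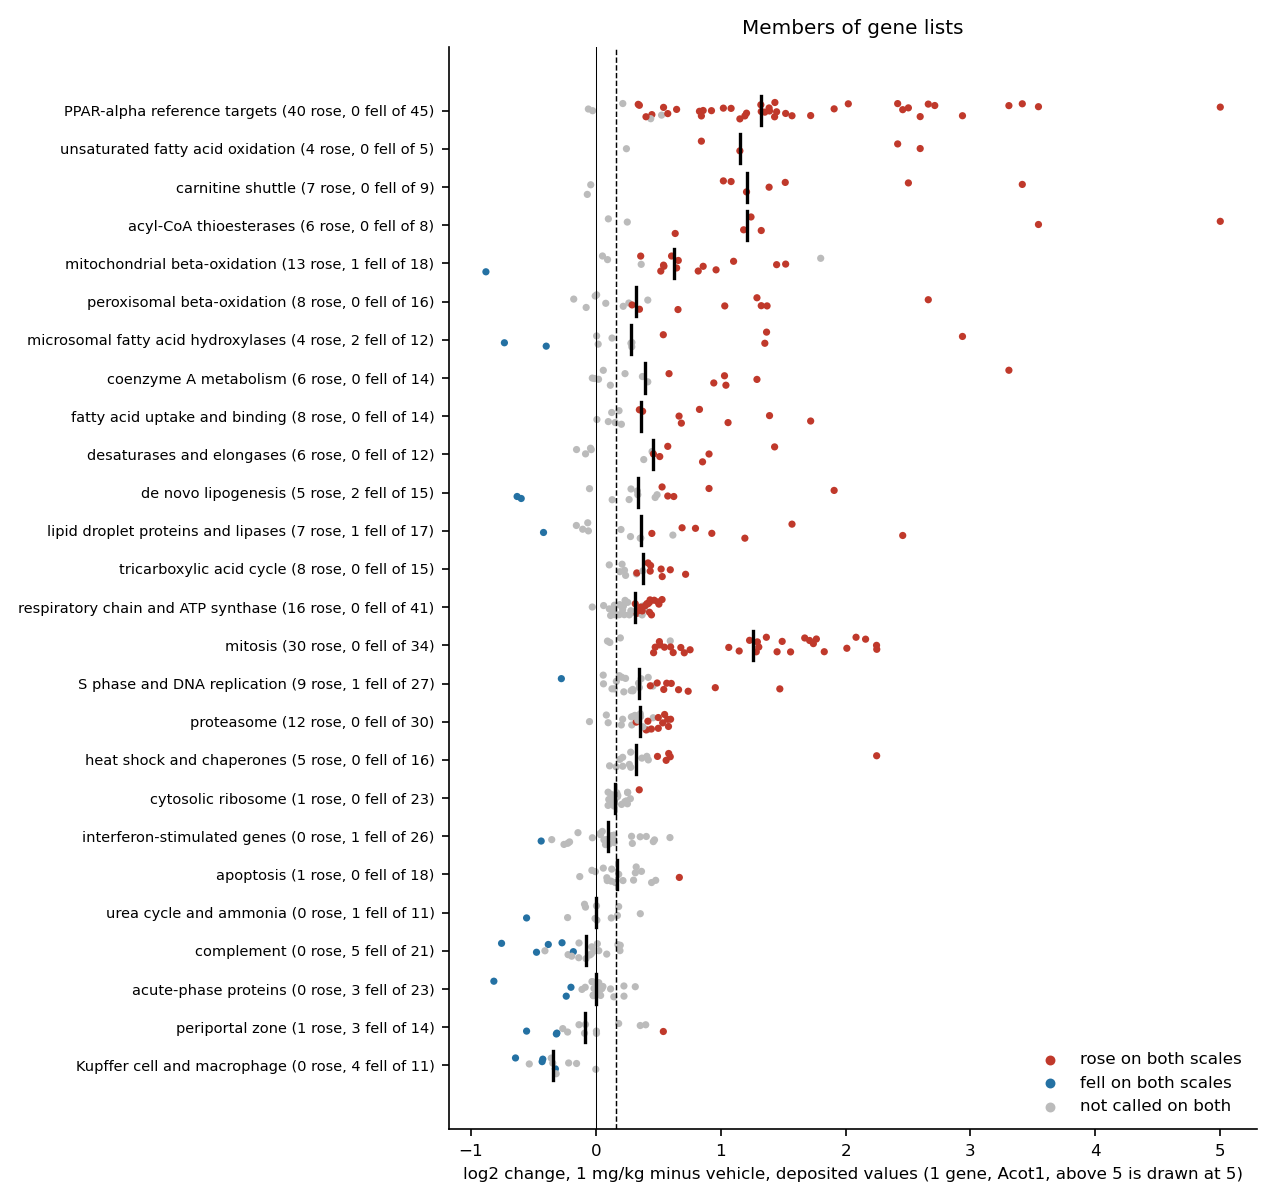
Log2 change at 1 mg/kg minus vehicle (deposited values) of the measured members of 26 gene lists, with 1 point per gene coloured by its call on both scales, a black bar at the list median and a dashed line at the median of all genes (0.16). Lists of fatty acid oxidation and mitosis sit to the right of the dashed line, and complement, periportal and Kupffer cell lists sit to its left; Acot1 lies beyond the axis and is drawn at its edge.

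Genes of fatty acid synthesis and storage did not move as 1 block. Me1, the malic enzyme that supplies NADPH, had 9.11, 9.26 and 9.52 at 1 mg/kg and 6.51, 7.47 and 7.86 in vehicle and rose 3.75-fold without overlap (adjusted p = 1.99e-14). The desaturases Fads2 and Fads1, which act on polyunsaturated fatty acids, rose 2.7-fold and 1.81-fold, both without overlap. In all 6 of 12 desaturases and elongases rose, and 4 did without arrays 7 and 10 of the 1 mg/kg group. Of 15 genes of de novo lipogenesis 5 rose and 2 fell, and without these 2 arrays 1 rose and 2 fell. Elovl6, an elongase, rose 1.87-fold, Scd, the stearoyl-CoA desaturase, 1.49-fold, and Srebf1, a regulator of lipogenesis, 1.54-fold. Each of these 3 calls was lost without at least 1 array, for 3, 2 and 10 arrays in turn, with adjusted p up to 0.0687, 0.0543 and 0.0817 after quantile normalization. In the other direction Thrsp, a lipogenic protein of thyroid hormone and carbohydrate response, had 9.22, 10.10 and 11.06 at 1 mg/kg and 10.15, 10.89 and 11.15 in vehicle and fell to 0.646 (adjusted p = 0.00754). Pklr, the liver pyruvate kinase, fell to 0.661 (adjusted p = 0.000368). Both had overlapping groups, and of the further probe sets of Thrsp 1 passed on both scales (log2 change -0.62, adjusted p = 0.0334) and 1, the brighter, did not pass on the deposited scale (-0.27, adjusted p = 0.185).

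Lipid droplet proteins and lipases rose in 7 of 17 cases. Cidea, a droplet fusion protein best known from brown fat, had 5.92, 6.71 and 7.69 at 1 mg/kg and 3.66, 4.31 and 4.94 in vehicle, a 5.49-fold rise without overlap (adjusted p = 9.04e-11). Plin5, which ties droplets to mitochondria, rose 2.97-fold, Mgll, a monoglyceride lipase, 2.29-fold, Fitm2, a droplet-forming protein, 1.9-fold, Lipe 1.74-fold and Pnpla2, the main triglyceride lipase, 1.61-fold. Plin2, the chief droplet coat protein of liver, rose 1.36-fold, a call that was lost without any 1 of 6 arrays (adjusted p up to 0.0619 after quantile normalization). Plin2 had 2 dimmer probe sets, of which 1 rose (mean 6.75, log2 change 0.63, adjusted p = 0.000211) and 1 did not pass on either scale (mean 4.38), nor did a dim second probe set of Lipe. The related Cidec did not pass on both scales (8.15 ± 0.22 at 1 mg/kg and 8.21 ± 0.18 in vehicle, log2, SD, n = 10 each). Plin1, a perilipin of adipocytes, fell to 0.748 at a dim level.

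For triglyceride assembly the genes went both ways. The glycerol channels Aqp3 and Aqp7, dim in vehicle at 1.85 ± 0.12 and 1.96 ± 0.15, were 3.87 ± 1.36 and 3.89 ± 0.75 at 1 mg/kg (log2, SD, n = 10 each), rises of 4.06-fold and 3.81-fold on this scale (adjusted p = 6.98e-05 and 1.12e-09), whose sizes rest on vehicle values near the floor. Aqp3 was the more uneven, and its treated arrays reached down to 2.06. Dgat1, which makes triglyceride, rose 1.68-fold and Gpd1, which makes glycerol phosphate, 1.55-fold, whereas Dgat2 and Aqp9, both abundant in liver, fell to 0.801 and 0.794 (named after their values were seen). Angptl4, a secreted inhibitor of lipoprotein lipase, had 9.09, 9.73 and 10.11 at 1 mg/kg and 7.02, 8.36 and 9.09 in vehicle and rose 2.7-fold (adjusted p = 3.83e-06). Lpl itself, 4.16 ± 0.53 at 1 mg/kg and 3.69 ± 0.47 in vehicle, did not pass (adjusted p = 0.131). The dim lipoprotein receptor Vldlr rose 1.46-fold, a call that was lost without any 1 of 8 arrays (adjusted p up to 0.0931 after quantile normalization).

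Of the PPAR-alpha reference targets 5 did not pass on both scales: Fgf21, Txnip, Ucp3, Cidec and Retsat, the last named after its values were seen. Fgf21, a fasting hormone of liver, had 3.60, 4.83 and 5.78 at 1 mg/kg and 3.13, 4.23 and 5.15 in vehicle (adjusted p = 0.139), and most treated livers lay within the vehicle range. For 25 of the 45 targets all treated arrays lay above all vehicle arrays on both scales. The mean of the list in single livers was 8.94 to 9.49 at 1 mg/kg and 7.55 to 7.74 in vehicle (log2), with no overlap. The receptor's own transcript, Ppara, was dim in both groups and did not pass (2.34 ± 0.36 at 1 mg/kg and 2.17 ± 0.23 in vehicle, adjusted p = 0.23). These values lay below the medians of all probe sets, 2.60 and 2.47, where a change could hardly be read. Of the receptor's partners Rxrg rose 1.69-fold, and Rxra was higher on the deposited scale only (adjusted p = 0.0216, and 0.347 after quantile normalization). Creb3l3, a liver transcription factor of fasting lipid metabolism, rose 1.9-fold.

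Mitosis genes were the next large set of rises. The B cyclins start mitosis with Cdk1: Ccnb1 had 4.75, 5.68 and 6.29 at 1 mg/kg and 2.46, 3.11 and 4.62 in vehicle, and Ccnb2 had 5.56, 6.42 and 7.15 at 1 mg/kg and 2.94, 4.06 and 5.36 in vehicle. They rose 4.75-fold and 4.76-fold (adjusted p = 3.2e-09 and 7.71e-09), with treated arrays above vehicle arrays as deposited and a slight overlap after quantile normalization. Cdk1, their kinase, had 6.04, 6.53 and 7.37 at 1 mg/kg and 3.30, 4.71 and 5.73 in vehicle and rose 3.4-fold (adjusted p = 5.15e-07), with no overlap on either scale. Cdc20, which turns on the ubiquitin ligase of mitotic exit, rose 4.47-fold, Spc25, a kinetochore subunit, 4.24-fold, and Pttg1, the securin that holds sister chromatids, 4.03-fold. Ccna2, a cyclin of S phase and early mitosis, rose 3.55-fold, Kif20a, a kinesin of cell division, 3.34-fold, Ube2c, an enzyme of the same ubiquitin ligase, 3.28-fold, and Top2a, which untangles DNA, 2.95-fold. The 4 genes of the list that were not called were named after their values were seen: Cdc25b (adjusted p = 0.0083 as deposited and 0.11 after quantile normalization), and the dim Kif23, Cenpa and Cenpe. A second, dim probe set of Kif23 did pass (log2 change 0.58, adjusted p = 1.18e-06). Mki67, the usual proliferation marker, was dim in both groups and rose 1.42-fold, a call that was lost without any 1 of 10 arrays (adjusted p up to 0.0973 after quantile normalization).

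On the deposited scale every treated liver had a higher mean over the mitosis list than every vehicle liver. The rats differed among themselves in both groups. The mean over the 34 genes was 3.68 to 4.69 at 1 mg/kg and 2.41 to 3.62 in vehicle (log2). After quantile normalization the groups overlapped, at 3.56 to 4.58 at 1 mg/kg and 2.49 to 3.69 in vehicle. The deposited mean at 1 mg/kg averaged 4.29 on arrays 1 to 4 and 3.96 on arrays 5 to 10, against 2.93 in vehicle (log2). Arrays 5 to 10 had the higher poly-A controls. With arrays 1 to 4 alone as the treated group 29 of the 34 genes rose, with arrays 5 to 10 alone 21, with the poly-A level as a covariate 29, and without vehicle array 1 28. Ccnb1 was 2.48 above vehicle on arrays 1 to 4 and 2.09 above on arrays 5 to 10 (log2). Both parts were set against all 10 vehicle arrays and not against vehicle at a matched poly-A level. Arrays 5 to 10 had poly-A controls of 6.34 to 7.39, a range that only vehicle array 1, at 6.50, reached. Whether the mitosis difference holds at a matched poly-A level was not tested.

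**Figure D4:**
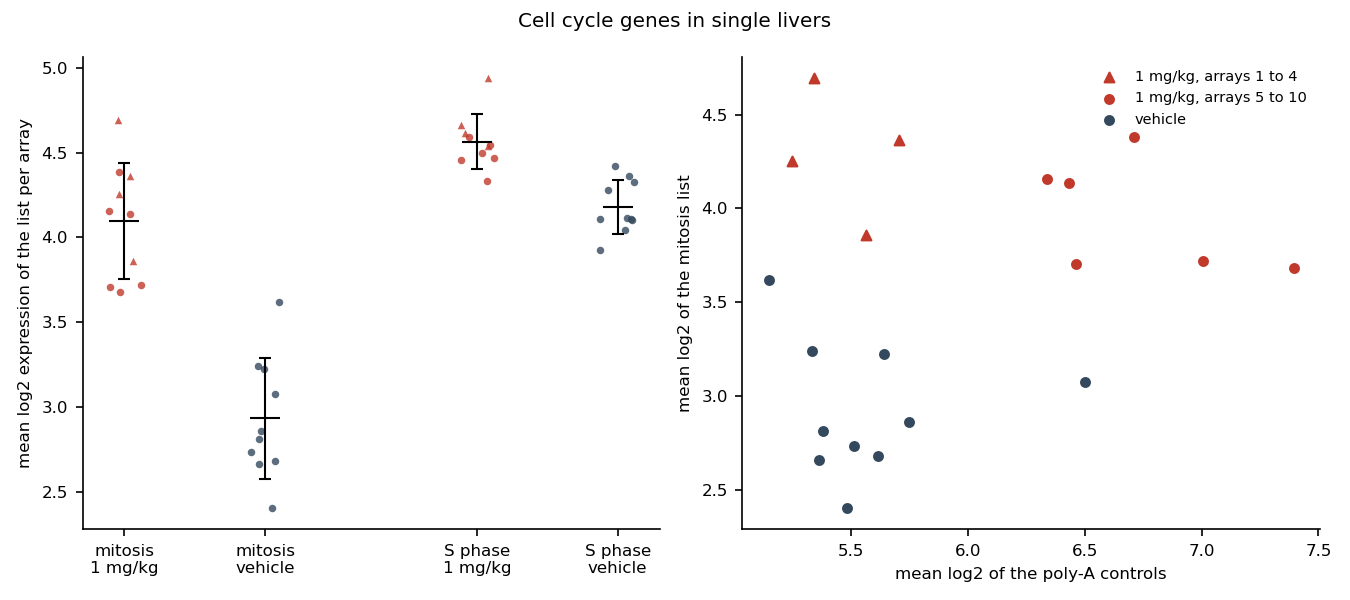
Left, mean log2 expression of the mitosis list and of the S phase list in single livers, at 1 mg/kg (red; triangles are arrays 1 to 4) and in vehicle (dark), with bars for the mean ± SD of 10 arrays. Right, the mitosis mean of each liver against its poly-A controls, as deposited: at 1 mg/kg both the low and the high poly-A arrays lie above the highest vehicle array, at 3.62. After quantile normalization, not drawn here, the groups overlapped.

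S phase genes copy DNA before mitosis, and G1 genes govern the decision to divide. Of 27 S phase genes 9 rose and 1, Ung, fell (named after its value was seen), and the median log2 change was 0.34 as deposited and 0.12 after quantile normalization, beside 1.26 and 1.01 for mitosis. Rrm2, the regulated subunit of ribonucleotide reductase, had 7.56, 8.17 and 9.23 at 1 mg/kg and 4.95, 6.74 and 7.95 in vehicle and rose 2.78-fold (adjusted p = 0.000325), with overlap. Tk1, thymidine kinase, rose 1.94-fold and Dut, a dUTPase, 1.67-fold. With arrays 5 to 10 alone as the treated group 5 S phase genes rose. Of 20 G1 cyclins, CDK inhibitors and p53 targets 2 rose and 1, Gadd45b, fell. Cdkn2c and Cdkn1a, both inhibitors of cyclin-dependent kinases, rose 1.85-fold and 1.97-fold. The call for Cdkn1a was lost without any 1 of 6 arrays (adjusted p up to 0.0817 after quantile normalization). Another probe set of Cdkn1a, with a mean of 4.90, also rose (log2 change 1.07, adjusted p = 2.66e-05). Ccnd1, the cyclin of G1 entry, was higher on the deposited scale only (6.78 ± 0.36 at 1 mg/kg and 6.24 ± 0.55 in vehicle, log2, SD, n = 10 each; adjusted p = 0.0181, and 0.288 after quantile normalization). Of 18 apoptosis genes 1 rose.

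Many promoters of mitotic genes hold a pair of short elements, the CCAAT box and the CHR element TTTGAA, through which repressor and activator complexes time them in the cell cycle. Both were searched on both strands in the 250 bases before the start site, in RefSeq promoters of build GRCr8. CCAAT was found in 23 of 29 mitosis promoters (79.3%), 13 of 24 S phase promoters (54.2%) and 35.1% of all 11088 promoters. TTTGAA was found in 14 of 29 mitosis promoters (48.3%), 2 of 24 S phase promoters (8.33%) and 10.9% of all, and both together in 14 of 29 mitosis promoters and 4.03% of all. Of the 14 mitosis genes with both 12 rose, beside 30 of all 34 measured mitosis genes (88.2%). Both elements were in 72 of 1248 promoters of genes that rose (5.77%) and 11 of 362 of genes that fell (3.04%). Whether the elements go with the rise was not tested. Of the 12 mitosis genes, 5 were chosen for display below. They run 5′ to 3′ toward the start site, and capitals mark both elements or their reverse complements.
Ccnb2, chr8:79981676-79981892 (minus strand): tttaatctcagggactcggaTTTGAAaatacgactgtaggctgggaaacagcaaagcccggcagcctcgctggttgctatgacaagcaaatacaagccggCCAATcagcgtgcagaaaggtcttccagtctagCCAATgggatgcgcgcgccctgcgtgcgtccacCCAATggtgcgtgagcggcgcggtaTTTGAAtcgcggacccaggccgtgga
Cdk1, chr20:19265063-19265292 (plus strand): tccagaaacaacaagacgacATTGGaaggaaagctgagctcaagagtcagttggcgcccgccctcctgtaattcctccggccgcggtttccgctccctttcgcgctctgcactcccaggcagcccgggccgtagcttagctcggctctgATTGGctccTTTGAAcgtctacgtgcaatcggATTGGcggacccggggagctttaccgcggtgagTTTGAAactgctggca
Pttg1, chr10:28406330-28406576 (minus strand): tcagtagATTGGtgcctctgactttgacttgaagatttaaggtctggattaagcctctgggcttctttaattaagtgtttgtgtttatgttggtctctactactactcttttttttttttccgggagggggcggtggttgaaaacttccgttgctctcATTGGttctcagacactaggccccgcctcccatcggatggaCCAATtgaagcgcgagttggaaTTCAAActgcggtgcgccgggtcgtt
Spc25, chr3:74396750-74396842 (minus strand): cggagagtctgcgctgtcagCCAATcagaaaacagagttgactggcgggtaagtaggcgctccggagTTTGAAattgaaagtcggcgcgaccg
Top2a, chr10:84473094-84473343 (minus strand): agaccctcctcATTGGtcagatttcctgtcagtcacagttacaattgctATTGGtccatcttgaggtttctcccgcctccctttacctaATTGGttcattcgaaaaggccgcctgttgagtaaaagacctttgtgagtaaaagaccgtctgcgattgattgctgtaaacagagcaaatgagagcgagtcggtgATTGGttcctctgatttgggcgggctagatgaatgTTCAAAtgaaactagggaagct

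The dose steps on either side of 1 mg/kg set this dose beside the others. Direct comparisons of 1 with 0.1 mg/kg found 1406 genes higher (10.5%) and 397 lower (2.95%) on both scales, and those of 10 with 1 mg/kg found 1149 higher (8.55%) and 804 lower (5.98%); all share the 1 mg/kg arrays with the comparison above. Arrays 8 and 9 of the 0.1 mg/kg group stood apart, with gene medians of 3.49 and 3.60 where its other 8 arrays ran from 3.88 to 3.99 (log2). Without them, left out after seeing the data, 1315 genes were higher and 398 lower at 1 than at 0.1 mg/kg, and 38 targets and 28 mitosis genes were higher. Of the 45 PPAR-alpha reference targets 39 were higher at 1 than at 0.1 mg/kg and 37 were higher again at 10 than at 1 mg/kg. Of the 34 mitosis genes 29 were higher at 1 than at 0.1 mg/kg, and 2 were higher at 10 than at 1 mg/kg. The median log2 difference of 10 minus 1 mg/kg was 0.69 for the targets and 0.17 for mitosis, against 0.09 over all genes. The difference between these lists was not itself tested.

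Single genes show the range of these dose courses. Ccnb1 was 2.68 higher at 1 than at 0.1 mg/kg (log2, adjusted p = 6.48e-11), and the difference of 10 minus 1 mg/kg was 0.17 (adjusted p = 0.645). Fabp3 added most of its change above the middle dose, with a further 5.14 from 1 to 10 mg/kg (adjusted p = 7.57e-18), and so did Cpt1b, with 3.75 (adjusted p = 3.51e-22). Lpl and Ucp3, which had not passed against vehicle at 1 mg/kg, were 3.38 and 2.68 higher at 10 than at 1 mg/kg (adjusted p = 3.79e-13 and 8.63e-18). Acot1 took its larger step below the middle dose: it was 8.89 higher at 1 than at 0.1 mg/kg, where it was near the floor, and 0.85 higher again at 10 mg/kg, with no overlap. Thrsp alone among the genes plotted was lowest at 1 mg/kg, and was 0.88 higher at 10 than at 1 mg/kg (adjusted p = 0.000558).

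**Figure D5:**
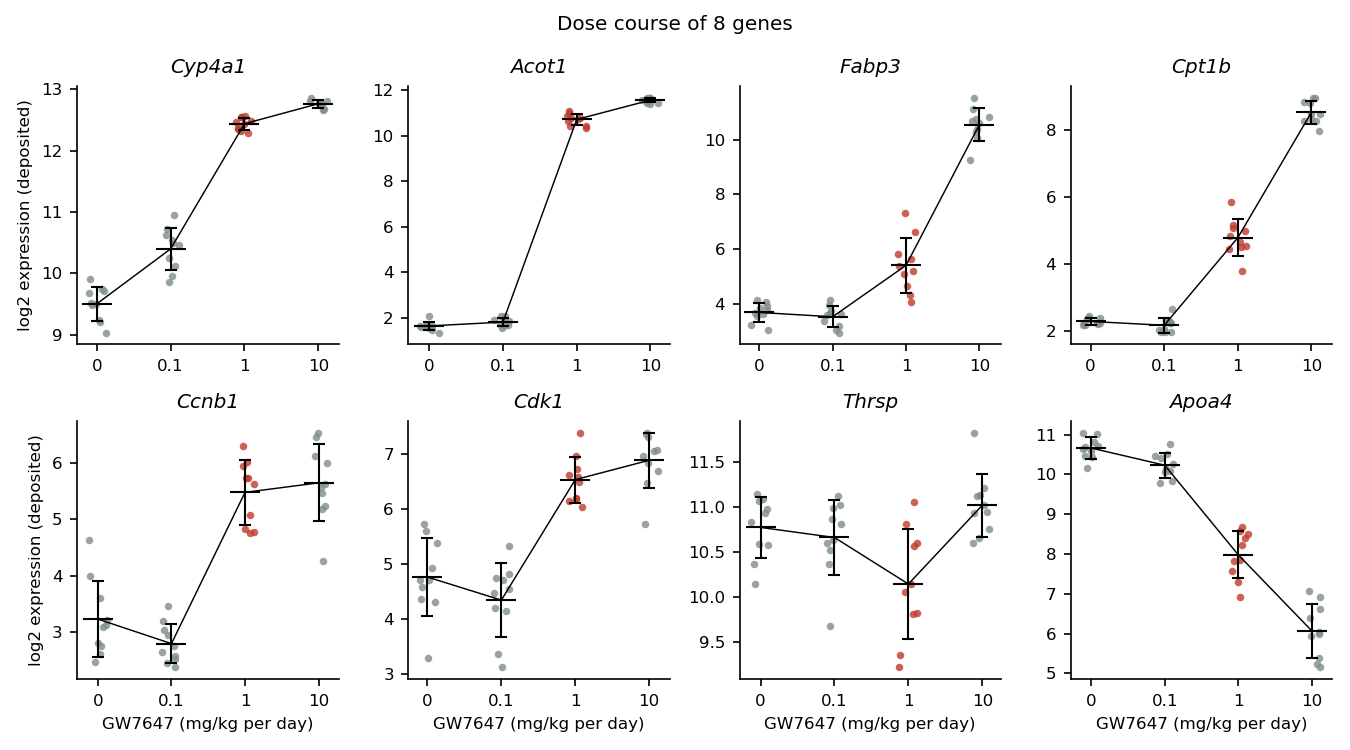
Deposited log2 expression of 8 genes at 0 (vehicle), 0.1, 1 and 10 mg/kg per day, with 1 point per rat, the 1 mg/kg arrays in red, and lines and bars for the mean ± SD of 10 arrays; doses are evenly spaced. Fabp3 and Cpt1b take their largest step from 1 to 10 mg/kg, Acot1, Ccnb1 and Cdk1 from 0.1 to 1 mg/kg, and Thrsp is lowest at 1 mg/kg.

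Several of the strongest rises lay outside fatty acid oxidation. Hdc, which makes histamine from histidine, had 8.40, 8.92 and 9.33 at 1 mg/kg and 3.62, 4.09 and 5.01 in vehicle, a 26.3-fold rise without overlap (adjusted p = 5.88e-23). Of 9 markers of mast cells, the usual source of Hdc in tissues, 0 rose and 2, Mcpt1 and Gata2, fell. The call for Mcpt1 was lost without any 1 of 9 arrays (adjusted p up to 0.103). A second, dim probe set of Gata2 did not pass (log2 change 0.11, adjusted p = 0.188). Tpsb2 and Kit were higher on the deposited scale only (adjusted p = 0.0147 and 0.0234, and 0.284 and 0.530 after quantile normalization). Of the 9 markers 8 had a mean below log2 3 in both groups, where a change could hardly be read. The summed level of the 9 on the linear scale was 40.0 to 47.0 at 1 mg/kg and 40.5 to 52.8 in vehicle. Whether the Hdc rise goes with mast cells was not tested. Aig1, which hydrolyses lipids built from hydroxy fatty acids, had 8.47, 8.93 and 9.30 at 1 mg/kg and 3.54, 4.46 and 4.84 in vehicle and rose 22.4-fold (adjusted p = 1.76e-25), though a second, dim probe set did not pass. Aldh1a1, which makes retinoic acid, had 10.00, 10.24 and 10.77 at 1 mg/kg and 5.87, 7.43 and 8.86 in vehicle and rose 6.66-fold (adjusted p = 2.67e-10). The SD of Aldh1a1 was 0.22 at 1 mg/kg and 1.07 in vehicle (log2), a difference in spread that was not tested. Spmip11, a protein of sperm flagella, rose 12.5-fold from a dim level, and Spink1, a secreted trypsin inhibitor, rose 7.85-fold with overlap. The size for Spink1 differed between probe sets: further ones rose with log2 changes of 0.88 and 2.91 (adjusted p = 0.00042 and 4.68e-08).

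Further rises of known function were those of Cyp17a1, a steroid hydroxylase, at 4.94-fold, Hspb1, a small heat shock protein, at 4.75-fold, and Serpina7, the thyroxine-binding globulin, at 4.26-fold. Hspb1 led the 5 of 16 heat shock genes that rose, in which the next were Hsp90ab1 at 1.51-fold (its second probe set missed the threshold after quantile normalization, adjusted p = 0.128), the mitochondrial chaperonins Hspd1 and Hspe1 at 1.5-fold and 1.48-fold, and the dim Hspa1a at 1.41-fold, a call that was lost without any 1 of 7 arrays (adjusted p up to 0.074 after quantile normalization). Proteasome subunits rose in 12 of 30 cases, at most 1.51-fold for Psmd2. Tor3a, a torsin ATPase, rose 5.23-fold, Nim1k, a kinase, 4.72-fold, Rab30, a small GTPase of the Golgi, 4.12-fold, Hsdl2, a peroxisomal dehydrogenase-like protein, 4.08-fold, Enc1, a ubiquitin ligase adaptor, 3.94-fold, Abhd1, a hydrolase, 3.89-fold, and Miox, which cleaves inositol, 3.5-fold. Cyp8b1, which sets the cholic acid share of bile acids, rose 2.18-fold, whereas Cyp7a1, whose step limits the making of bile acids, had 6.57, 7.74 and 8.99 at 1 mg/kg and 5.78, 7.20 and 8.12 in vehicle and did not pass (adjusted p = 0.0668).

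The largest fall was that of Apoa4, which had 6.91, 8.04 and 8.68 at 1 mg/kg and 10.17, 10.66 and 11.05 in vehicle. No treated liver reached the vehicle range, and the log2 change was -2.68 ± 0.21 (SE; adjusted p = 4.92e-13). The abundant apolipoproteins Apoa1 and Apoc3 did not pass on both scales: Apoa1 was 12.06 ± 0.26 at 1 mg/kg and 12.00 ± 0.16 in vehicle (log2, SD, n = 10 each; adjusted p = 0.616), and Apoc3 was 13.02 ± 0.05 at 1 mg/kg and 13.04 ± 0.05 in vehicle (adjusted p = 0.694, and 0.0457 after quantile normalization, where it was lower). Acmsd had 2.20, 2.58 and 3.14 at 1 mg/kg and 3.45, 4.50 and 5.29 in vehicle, likewise without overlap (adjusted p = 5.42e-09). It was the 1 of 16 NAD synthesis genes that fell, and its values at 1 mg/kg lay near the median of all probe sets, where a further fall could hardly be read. Ass1, a urea cycle enzyme, had 10.78, 11.06 and 11.19 at 1 mg/kg and 11.31, 11.56 and 11.95 in vehicle and fell to 0.681 (adjusted p = 0.000108). That was a smaller change, but again no treated liver overlapped a vehicle liver, and it was the 1 of 11 urea cycle genes that fell.

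Other falls had overlapping groups. Dio1, the deiodinase that activates thyroid hormone, had 4.84, 5.36 and 6.20 at 1 mg/kg and 5.97, 6.31 and 7.12 in vehicle and fell to 0.495 (adjusted p = 0.000142). Elapor1, an endosomal and lysosomal protein, fell to 0.314, Mtmr7, a lipid phosphatase, to 0.366, Cyp3a9, a drug-metabolising enzyme, to 0.453, and Extl1, a glycosyltransferase, to 0.539. Slc2a5, a fructose transporter, fell to 0.572 and Tkfc, which phosphorylates the glyceraldehyde of fructose breakdown, to 0.623. Stac3, at a high level in vehicle (10.77 ± 0.17), was 9.92 ± 0.65 at 1 mg/kg (log2, SD, n = 10 each; adjusted p = 0.000594), with treated livers spread from 8.73 to 10.90. Hal and Prodh, which break down histidine and proline, fell to 0.803 and 0.72, Oat, which acts on ornithine, to 0.664, and Ugp2, which makes UDP-glucose, to 0.646; the call for Hal was lost without 1 array (adjusted p = 0.0535). Dusp6 and Dusp5, phosphatases of ERK kinases, fell to 0.585 and 0.661. The immediate-early genes Egr1 and Ier2 fell to 0.528 and 0.72, 2 of 18 of their list, and 1 without arrays 7 and 10 of the 1 mg/kg group; the call for Egr1 was lost without any 1 of 13 arrays and that for the clock gene Bhlhe40 (0.553) without any 1 of 12 (adjusted p up to 0.0934 and 0.092).

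Complement proteins tag and lyse microbes and are made mainly by liver. Of 21 complement genes 5 fell and 0 rose, with a median log2 change of -0.08 as deposited and -0.31 after quantile normalization. C6, of the membrane attack complex, had 6.85, 8.20 and 8.81 at 1 mg/kg and 8.03, 8.83 and 9.60 in vehicle and fell to 0.593 (adjusted p = 0.000992). Mbl1 and Mbl2, mannose-binding lectins, fell to 0.72 and 0.829, C1s, a protease of the first component, to 0.768, and C4bpa, an inhibitor (named after its value was seen), to 0.883. The calls for Mbl2 and C4bpa were lost without any 1 of 12 arrays and without 1 array (adjusted p up to 0.0965 and 0.0636). Another probe set of Mbl2, with a mean of 8.12, also fell (log2 change -0.38, adjusted p = 0.00139). Of 23 acute-phase proteins 3 fell, A2m, Apcs and Itih4, of which A2m went furthest, to 0.568; its call was lost without any 1 of 3 arrays (adjusted p up to 0.0702).

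Clec4f, a lectin found on Kupffer cells, the resident macrophages of liver, had 9.33, 9.66 and 10.28 at 1 mg/kg and 9.54, 10.14 and 10.45 in vehicle and fell to 0.745 (adjusted p = 0.00513). C1qb and C1qc, complement subunits made by macrophages, fell to 0.64 and 0.742, and Cd163, a haemoglobin scavenger receptor (named after its value was seen), to 0.799. All 4 overlapped between the groups. The calls for C1qb, C1qc and Cd163 were lost without any 1 of 2, 5 and 11 arrays (adjusted p up to 0.0641, 0.0682 and 0.11), and without vehicle array 1 3 of the 11 markers fell. With arrays 1 to 4 alone as the treated group 6 markers fell, with arrays 5 to 10 alone 1, and with the poly-A level as a covariate 2. Without arrays 7 and 10 of the 1 mg/kg group, those of the highest actin difference, 2 markers fell. The summed level of the 11 markers on the linear scale had a lowest, median and highest value of 1678, 2502 and 4042 at 1 mg/kg and 2328, 3430 and 4215 in vehicle, so the groups overlapped widely. Fcna, a ficolin of liver macrophages, fell to 0.643 and Axl, a receptor of dead cell uptake, to 0.679. In whole liver RNA, fewer cells of a type and less RNA per cell cannot be told apart.

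Other cell type lists held few calls. Of the markers of neutrophils, stellate cells and fibroblasts, erythroid cells and muscle 0 of 6, 10, 4 and 9 were called. Of 7 sinusoidal endothelial markers 1 fell, and of 12 T and NK cell markers 1 fell. Of 5 brown adipocyte markers 2 rose, Cidea and the dim Dio2 (1.96 ± 0.10 at 1 mg/kg and 1.69 ± 0.11 in vehicle, log2, SD, n = 10 each), and 1 without arrays 7 and 10 of the 1 mg/kg group, while the defining marker Ucp1 was at 1.95 ± 0.14 at 1 mg/kg and 1.80 ± 0.06 in vehicle. The mean of these 5 was 2.73 to 3.05 at 1 mg/kg and 2.20 to 2.55 in vehicle, with no overlap. The log2 change was 2.46 for Cidea and 0.27 for Dio2. It lay between -0.06 and 0.15 for the other 3, none of which was called. Of 11 pancreas markers 2 rose, Ctrb1 and Cel, both below log2 3 in both groups. Of 8 cholangiocyte markers Epcam rose 1.65-fold and Spp1 fell to 0.698, of 7 adipocyte markers Plin1 fell, and of 5 B and plasma cell markers the dim Blnk rose. Markers in these sentences other than Cidea and Plin1 were named after their values were seen. Lists with calls near or below the share of all genes were the cytosolic ribosome (1 of 23 rose), interferon-stimulated genes (1 of 26 fell), antioxidant genes (2 of 24 rose) and cholesterol synthesis (1 of 22 rose and 1 fell). Igf1, the hepatic growth factor, was higher on the deposited scale only (adjusted p = 0.00515, and 0.298 after quantile normalization).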

How the data were processed

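GCRMA and Partek, which the submitters' processing notes name, gave the deposited table of log2 values, 1 per probe set and array. Their versions and settings are not known here. Of 31139 probe sets 19068 had 1 symbol, 573 several and 11498 none here. Symbols were updated through Entrez numbers (18989 matched) in a RefSeq table, and each of 13437 genes was read by its brightest probe set (highest mean of 40 arrays). A linear model of the 4 groups was fitted to all 40 arrays with limma 3.58.1 in R 4.3.3 (lmFit and eBayes, 36 residual degrees of freedom), as deposited and after quantile normalization, with two-sided tests and Benjamini-Hochberg adjustment over all genes. The test was checked on simulated data. There is no read depth here, so precision rests on 10 arrays a group. Separate rats gave the replicates, and no 2 arrays of a group were copies (at most 0.0803% equal values).

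The members and lists were chosen with earlier results of these data known. Named are the 40 largest rises and 40 largest falls with a group mean of log2 5 or more, up to 6 members with the largest changes per list, and genes set whatever their values; a subset of these is shown, and genes outside the rule are marked as named after their values were seen. The 62 gene and 14 marker lists hold 1238 genes, of which 1056 were measured.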

Additional observations from a re-analysis of the deposited data

Results flagged for a closer look

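Of 410 sets of 10 arrays tested for 1 sample far from the others, 38 had such a sample, where chance alone gives about 1 in 20, or 20.5, and in 19 of the 38 it was vehicle array 1. The values that follow are log2. Vehicle array 1 was highest for Abhd1 (8.07), Acot7 (8.20), Dgat1 (7.75), Dgat2 (10.45), Miox (8.48), Ndufa9 (9.33), Ogdh (8.01), Psmd2 (8.85), Slc27a1 (5.28) and the poly-A controls (6.50). It was lowest for Acsl1 (10.99), Apcs (11.12), C4bpa (11.46), Cat (10.59), Ctsc (9.67), Lpl (2.52), Mbl2 (9.71), Mpc2 (9.65) and the actin 3′ minus 5′ difference (2.20).

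On other vehicle arrays single high values were those of A2m (7.55), Acot1 (2.10), Alas1 (9.61), Cyp4a8 (4.98), Dbi (11.27) and Mki67 (2.26), and single low values those of Aig1 (3.54), Axl (5.50), Ech1 (8.47), Elapor1 (5.20) and Retsat (9.13). At 1 mg/kg a single array was high for Aldh1a1 (10.77) and Vldlr (3.41), and low for Cd163 (3.46), Crat (7.63), Crot (10.64), Dut (7.65), Plin2 (10.60) and Tk1 (5.56).

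Probe sets without a gene name here, which the comparisons above do not use, also held a response: of 11407 tested, 871 rose and 291 fell on both scales.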

How the results depend on the processing

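As reported, 5139 genes were higher and 453 lower on the deposited scale, and 1485 rose and 453 fell on both scales. In that order, the counts were 3027, 148, 822 and 148 with only genes of a group mean of log2 5 or more, which tests fewer genes, and 881, 33, 215 and 33 for a change beyond 1.2-fold. With arrays 1 to 4 of the 1 mg/kg group only, which is fewer samples, they were 3325, 295, 939 and 294. On other scales the higher and lower counts were 1485 and 1621 (quantile normalization of all 40 arrays), 1473 and 1673 (of the 20 arrays only), 2534 and 1214 (arrays shifted to 1 median), and 1060 and 677 (hybridisation controls); the cause was not tested. Leaving out each array in turn gave 4848 to 5096 higher, 385 to 479 lower, 1323 to 1629 that rose and 385 to 479 that fell.

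The replicate block gave 5188 higher, 465 lower, 1496 that rose and 465 that fell. Same-numbered arrays had correlations of -0.13 to 0.13, 2 of 10 pairs were above 0.1, and 1 array correlated best with its own number. The labels do not say whether same-numbered rats were paired. Other priors, array weights, a fit of the 20 arrays alone, other choices of probe set, the poly-A level as a covariate, arrays 5 to 10 only and leaving out arrays 8 and 9 of the 0.1 mg/kg group or arrays 7 and 10 of the 1 mg/kg group (both added after seeing the data) moved each count by less than 1.5 times. Without arrays 7 and 10 of the 1 mg/kg group the calls of Acsl4, Axl, Ctsc, Cyp4b1, Insig2, Oat, Pdk2 and Slc25a30, which hold without any 1 array, were lost (adjusted p of 0.0514 to 0.0891 on the scale that missed), 1 G1 gene rose and 1 microsomal hydroxylase fell. No named gene changed direction with a call. Of 200 named genes 5 were no longer past the threshold after quantile normalization, 19 with arrays 1 to 4 only and 15 with the hybridisation controls. Dim genes near the floor limit folds, and the labels name no batch that could be fitted.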

Other observations

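Some named genes of other functions also differed at 1 mg/kg. Vwa8, a mitochondrial ATPase, rose 3.37-fold without overlap of the groups, and Hibch, which acts in valine breakdown, rose 2.3-fold. Slc25a30, a mitochondrial carrier, rose 3-fold with wide spread in both groups (SD 0.87 at 1 mg/kg and 1.16 in vehicle, log2), and the related Slc25a12, an aspartate and glutamate carrier, fell to 0.71. Ogdh, of the citric acid cycle, rose 1.51-fold, Atp5pf, of the ATP synthase, 1.38-fold, and the proteasome subunit Psmd8 1.5-fold. Por, the reductase that serves microsomal P450 enzymes, rose 1.98-fold, Alas1, the first enzyme of haem synthesis, 1.84-fold, and Gpx4, which reduces lipid peroxides, 1.5-fold. Ifgga2l1, an interferon-inducible GTPase by its name, rose 3.08-fold while its vehicle arrays ran from 4.12 to 8.72 (log2).

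Falls not yet described lay in several functions. Aldh1b1, a mitochondrial aldehyde dehydrogenase, fell to 0.546, in contrast to the rise of Aldh1a1, and RT1-CE16, a class I histocompatibility gene whose probes may read near copies, fell to 0.467. Fcgr3a, an immunoglobulin receptor, fell to 0.584, Otub2, a deubiquitinase, to 0.585, Hsd17b6, a steroid dehydrogenase, to 0.618, and Ackr4, a chemokine scavenger, to 0.626. Tsc22d1, a transcription regulator, and Slc17a4, an anion transporter, both fell to 0.648, and Insig2, which retains the sterol sensor in the endoplasmic reticulum, fell to 0.676, though a second probe set missed the threshold on the deposited scale (adjusted p = 0.062). Of 14 periportal genes 3 fell and 1 rose, and of 13 pericentral genes 2 fell and 1 rose. The 3 periportal genes that fell were Ass1, Hal and Ctsc, the last a lysosomal protease at 0.806 of vehicle. A second bright probe set of Ctsc did not pass (log2 change 0.01, adjusted p = 0.942), and the probe set used missed the threshold with arrays 1 to 4 alone and with arrays 5 to 10 alone as the treated group (adjusted p = 0.0766 and 0.0687).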
